A study of Homo sapiens with 9 samples.

Results

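The genes of the nuclear pore complex were followed through heat stress and recovery in HEK293T cells, a line derived from human embryonic kidney. The 32 nucleoporin genes were taken from a list of names and matched to the Ensembl identifiers of the count table, which holds 60664 genes. All 32 were found, and all 32 passed the filter on low counts that left 21139 genes. RNA-seq after removal of ribosomal RNA gave 9 libraries of wild-type cells: 2 of untreated cells kept at 37 °C (NC), 2 of cells heated at 43 °C for 1 h (H1), 2 each of cells returned to 37 °C for 1 h (H1R1) or 6 h (H1R6) after that heating, and 1 of cells returned for 18 h (H1R18). No other agent or gene change is named for any group. Nothing in the labels says that the replicate libraries came from separate cultures, so p-values measure the spread between these libraries, and H1R18 has no replicate of its own.

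The nuclear pore complex is the channel through which proteins and RNA pass between nucleus and cytoplasm. Its scaffold is built from an outer ring, the Y-shaped NUP107-NUP160 complex, and an inner ring around the channel. Transmembrane nucleoporins fix it in the nuclear envelope, a central channel is filled by proteins rich in phenylalanine-glycine (FG) repeats that bind transport receptors, a basket hangs into the nucleus, and filaments reach into the cytoplasm. By these roles the 32 genes were divided into 9 outer ring, 5 inner ring, 4 transmembrane, 4 central channel, 3 nuclear basket and 7 cytoplasmic face genes. Across the classes, 11 genes encode FG-repeat proteins and 21 do not. Scaffold nucleoporins are among the longest-lived proteins of non-dividing cells, so RNA and protein levels need not move together, and only RNA was counted here.

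Libraries held 3814195 to 6221613 counts. The nucleoporin genes took 0.525% to 0.528% of them in NC, 0.526% to 0.528% in H1, 0.571% to 0.573% in H1R1, 0.543% to 0.553% in H1R6 and 0.5% in H1R18. HSPH1, a heat-inducible chaperone gene, stood at 135 and 133 CPM (counts scaled to library size by the TMM method) in NC. It stood at 1636 and 1806 CPM in H1, 2721 and 2719 in H1R1, 2392 and 2755 in H1R6 and 324 in H1R18. DNAJB1, a heat-inducible HSP40 gene, stood at 69.5 and 80.4 CPM in NC and at 1910 and 2096 CPM in H1. It stood at 3684 and 3825 CPM in H1R1, 139 and 219 CPM in H1R6 and 59.0 CPM in H1R18. The epithelial keratins KRT8 and KRT18 ranged from 23.4 to 53.2 CPM, while EPCAM did not exceed 2.78 CPM. CD3E was at 0 in all 9 libraries and PTPRC, PECAM1 and ALB did not exceed 0.835 CPM, whereas the collagen gene COL1A1, listed as a fibroblast marker, was read at 44.0 to 64.2 CPM and was thus not absent from this line. In bulk RNA, fewer cells of a kind and less RNA per cell cannot be told apart.

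Promoter sequences of RefSeq (build GRCh38.p14) were found for 29 of the 32 genes, in 37 promoters of 300 bases, since some genes have several start sites. Promoters of GLE1, AHCTF1 and NUP43 were not analysed here. The heat shock element, to which heat shock factors bind, was searched in 2 forms. GAANNTTC was found in 2 of 37 promoters, both of NUP160, against 6.77% of 35116 promoters in all. TTCNNGAA was found in 3 of 37, of NUP93, NUP214 and AAAS, against 7.74% of all. Of 3 motifs that were chosen after expression values had been seen, ACTTCCGG, a motif of ETS factors, was found in 8 of 37 promoters (21.6%, against 4.14% of all), GCGCATGC, a core of the NRF1 motif, in 3 of 37 (8.11%, against 3.05%), and CCAAT in 14 of 37 (37.8%, against 34.6%). The 8 promoters with ACTTCCGG belong to 7 genes, among them POM121 and POM121C. Median GC content was 63.7% in the nucleoporin promoters and 58.7% in all promoters. The background was not matched for GC content or expression. Each search covered both strands, and the forms GAANNTTC and TTCNNGAA can overlap. A match is a description of letters, and its absence says only that those letters are not in the window.

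The 250 bases before the start site are shown for 5 genes, 5′ to 3′ on the strand of the gene. RANBP2 and RAE1 are the genes whose counts were higher directly after heating, NUP50 and SEC13 carry the NRF1 and ETS letters in capitals (SEC13 as CCGGAAGT, the other strand of ACTTCCGG, and NUP50 as a pair of matches, on opposite strands, that overlap), and AAAS, which passed in no comparison, carries the heat shock element form TTCNNGAA in capitals. Where a gene has several RefSeq start sites, the most upstream was taken. The windows of RAE1 and AAAS lie inside the Ensembl gene models used for counting, which begin further upstream, at base 57351223 for RAE1 and at base 53324864, on the minus strand, for AAAS. In RANBP2 the capitals mark the first of 2 exact copies of a stretch of 32 bases. The second copy begins 36 bases further on and ends 20 bases after the start site. An exact repeat at least this long was found in 1 of the 37 nucleoporin promoters and in 0.76% of all promoters. Neither RANBP2 nor RAE1 held a heat shock element in either form.
RANBP2 (chr2:108719232-108719481, plus strand): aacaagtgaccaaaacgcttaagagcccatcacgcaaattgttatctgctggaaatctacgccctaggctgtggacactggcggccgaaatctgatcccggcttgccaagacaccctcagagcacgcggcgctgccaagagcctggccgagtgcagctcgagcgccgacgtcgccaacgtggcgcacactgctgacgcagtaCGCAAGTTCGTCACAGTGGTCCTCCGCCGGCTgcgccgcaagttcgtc
RAE1 (chr20:57351292-57351541, plus strand): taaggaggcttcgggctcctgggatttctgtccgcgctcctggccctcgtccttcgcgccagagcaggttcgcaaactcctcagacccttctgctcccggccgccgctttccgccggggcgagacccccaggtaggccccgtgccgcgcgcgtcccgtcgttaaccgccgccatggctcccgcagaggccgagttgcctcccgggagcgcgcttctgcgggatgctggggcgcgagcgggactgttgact
NUP50 (chr22:45163675-45163924, plus strand): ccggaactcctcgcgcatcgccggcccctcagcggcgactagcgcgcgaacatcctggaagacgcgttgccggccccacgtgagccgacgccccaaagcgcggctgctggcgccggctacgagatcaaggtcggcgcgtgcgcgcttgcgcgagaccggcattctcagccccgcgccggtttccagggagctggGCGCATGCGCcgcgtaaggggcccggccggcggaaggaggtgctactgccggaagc
SEC13 (chr3:10321113-10321362, minus strand): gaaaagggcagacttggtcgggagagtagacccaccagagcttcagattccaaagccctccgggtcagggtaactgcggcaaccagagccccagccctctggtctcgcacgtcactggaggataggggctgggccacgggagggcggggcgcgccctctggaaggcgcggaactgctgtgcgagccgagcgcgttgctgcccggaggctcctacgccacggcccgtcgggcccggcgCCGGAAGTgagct
AAAS (chr12:53321611-53321860, minus strand): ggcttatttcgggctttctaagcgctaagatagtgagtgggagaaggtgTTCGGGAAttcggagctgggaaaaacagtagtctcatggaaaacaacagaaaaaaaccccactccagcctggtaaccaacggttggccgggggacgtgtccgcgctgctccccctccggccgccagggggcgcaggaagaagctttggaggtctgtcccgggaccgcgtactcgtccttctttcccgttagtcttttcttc

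For a comparison between genes, counts were divided by the exon length of the gene and scaled to the same sum over all genes in every library. By this level per exon length, the nucleoporin genes of untreated cells spanned a 10.95-fold range. Values are length-scaled CPM. NUP205, a large arch of the inner ring, was highest at 134 ± 0.0261 (mean ± SD, n = 2, as for all values in this paragraph and the next). It was followed by NUP210, a single-pass membrane glycoprotein, at 96.2 ± 10.6, NUP133 of the outer ring at 86.9 ± 0.411, NUP155 of the inner ring at 82.7 ± 3.7 and NUP153 of the basket at 82.0 ± 1.35. The lowest were GLE1, which activates the helicase that strips exported mRNA, at 12.2 ± 0.705, SEH1L at 12.4 ± 1.23 and NUP35 at 12.7 ± 1.18.

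Between these ends stood TPR (70.9 ± 1.56), NDC1 (70.9 ± 2.13), NUP188 (69.7 ± 4.79), NUP43 (56.4 ± 4.91), NUP98 (50.01 ± 1.74), NUP160 (48.6 ± 2.17), NUP62 (45.3 ± 8.47), RANBP2 (44.3 ± 1.96), SEC13 (42.1 ± 0.203), NUP54 (39.6 ± 4.83), NUP50 (28.9 ± 6.11), NUP85 (28.1 ± 2.48) and AAAS (25.7 ± 0.18). Lower still stood NUP107 (24.8 ± 1.88), POM121C (22.2 ± 0.708), NUP58 (21.0 ± 1.4), NUP93 (20.03 ± 0.264), NUP88 (19.9 ± 0.382), POM121 (19.1 ± 3.17), NUP37 (17.9 ± 2.95), AHCTF1 (17.5 ± 2.35), NUP214 (16.1 ± 1.61), NUP42 (16.1 ± 1.03) and RAE1 (15.8 ± 1.93). Of the 31 pairs of neighbours in this order, 20 had NC libraries that overlapped. The inner ring spanned a 10.5-fold range, the outer ring a 7.0-fold and the central channel a 2.38-fold range. The median was 69.7 for the inner ring, 70.9 for the basket, 46.6 for the transmembrane genes, 42.5 for the central channel, 28.1 for the outer ring and 16.1 for the cytoplasmic face. The scale counts every base of all merged exons as gene length, so a gene with long, rarely used exons is set low. So is a gene that shares exon bases with another gene, since reads over shared bases were left out of the counts.

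**Figure D1:**
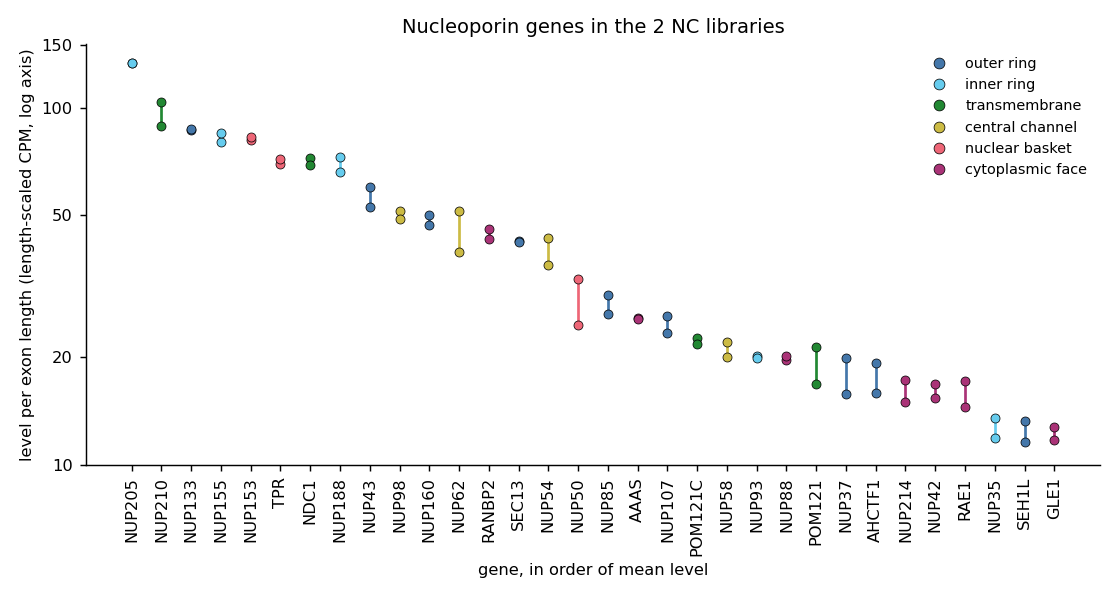
Level per exon length (length-scaled CPM, log axis) of the 32 nucleoporin genes in the 2 NC libraries, with a line joining the 2 libraries of a gene and colours for the 6 classes. NUP205 had a mean of 134 and GLE1 of 12.2, the means of the 7 cytoplasmic face genes lay at 44.3 or below, and those of the 5 inner ring genes reached from 12.7 to 134.

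To ask when nucleoporin RNA moved, heated and recovering cells were set against NC and every time point against its predecessor. The comparisons share libraries and are therefore not independent of each other. A gene was called higher or lower at an adjusted p under 0.05 in edgeR's quasi-likelihood test, adjusted over all 21139 genes tested. Directly after heating, 2 of 32 nucleoporin genes were higher than in NC (6.25%, against 3.43% of all genes tested) and 0 were lower (against 1.77%). At an unadjusted p under 0.05, 3 were higher and 3 lower, and DESeq2 called 0 in either direction. After 1 h of recovery, 10 were higher (31.2%, against 10.7%) and 1 lower (3.12%, against 9.53%). After 6 h, 4 were higher (12.5%, against 3.0%) and 1 lower (against 4.03%). After 18 h, 1 was higher (against 4.58%) and 3 were lower (9.38%, against 6.43%).

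Genes with more reads pass a test more readily, and the nucleoporin genes lay between an average of 4.87 and 9.07 on the log2 CPM scale. Genes for comparison were taken by that range alone. Levels within it were not matched, so a difference in depth can remain. Of the 7322 genes tested within that range, 4.9% were higher and 2.65% lower in H1 than in NC, 21.7% were higher and 13% lower in H1R1, 6.45% were higher and 8.56% lower in H1R6, and 8.51% were higher and 13.2% lower in H1R18. The median log2 fold change of the 32 genes against NC was 0.02 in H1, 0.21 in H1R1, 0.08 in H1R6 and -0.14 in H1R18. Over all genes tested the medians were -0.01, -0.01, -0.01 and -0.03, and over the genes within the range of levels they were -0.00086, 0.06, -0.01 and -0.05. The highest mean CPM of the 5 conditions was that of H1R1 in 20 of 32 genes (62.5%, against 23.5% of all genes tested), and the lowest was that of H1R18 in 16 of 32 (50%, against 31.2%). These shares include the single H1R18 library and were not counted for the genes within the range of levels. No test was made of them.

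**Figure D2:**
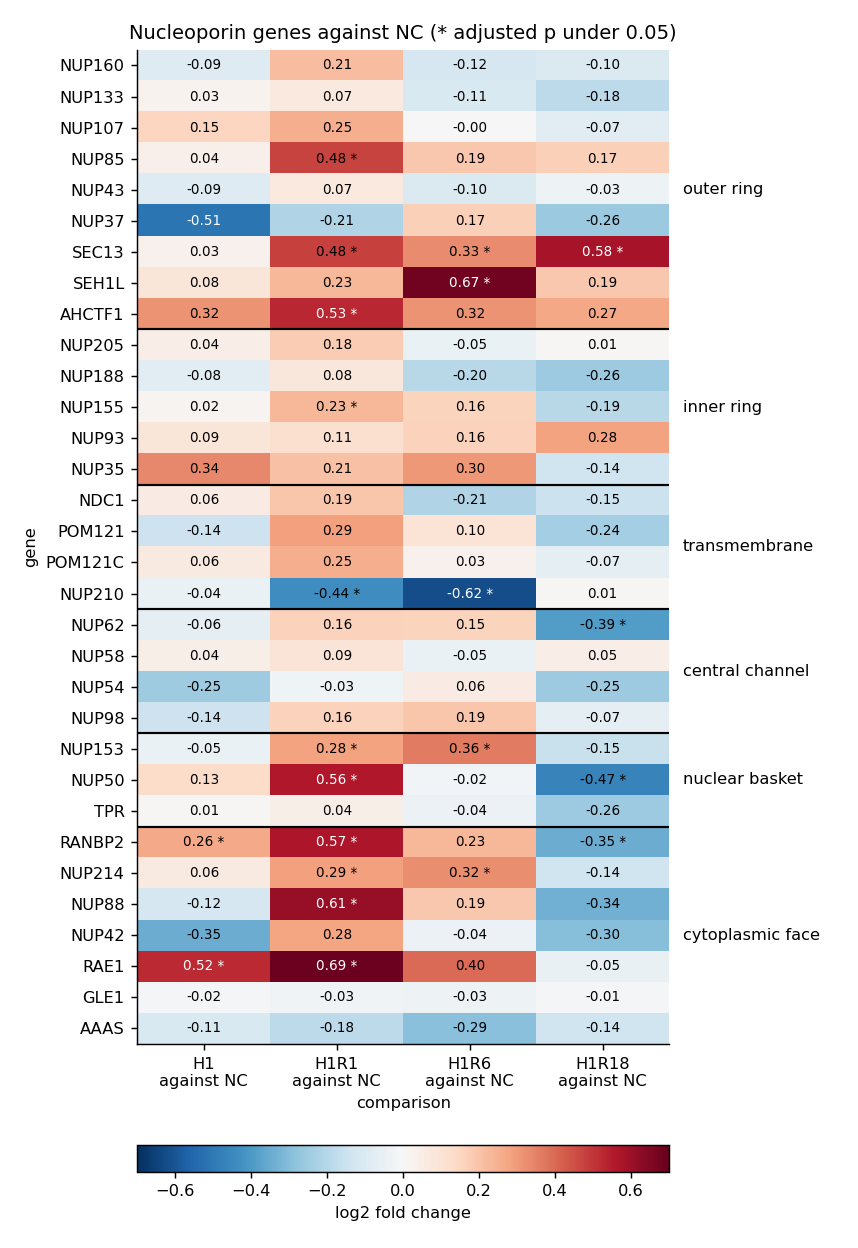
Log2 fold change against NC of the 32 nucleoporin genes (lines, grouped by class) in H1, H1R1, H1R6 and H1R18 (columns), with an asterisk at an adjusted p under 0.05. Red is higher than in NC and blue lower: 10 asterisks of higher genes stand in the H1R1 column, and NUP210 is the gene marked as lower in H1R1 and H1R6.

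Between successive times, 11 of 32 genes were higher in H1R1 than in H1 (34.4%, against 6.35% of all genes) and 1 was lower (against 5.08%). From H1R1 to H1R6, 1 gene was higher (against 6.43%) and 7 were lower (21.9%, against 8.93%). From H1R6 to H1R18, 1 gene was higher (against 6.28%) and 8 were lower (25.0%, against 7.65%). Within the range of levels of the nucleoporin genes, 14.7% of genes were higher in H1R1 than in H1, 18.5% were lower in H1R6 than in H1R1, and 15.9% were lower in H1R18 than in H1R6. Of the 32 genes, 13 passed in at least 1 comparison with NC, another 7 passed only between successive times, and 12 passed in none of the 7 comparisons. The matching shares of all genes tested were not counted. These numbers therefore do not say whether nucleoporin genes passed more often than other genes.

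The cytoplasmic face held the only genes called directly after heating. RANBP2 encodes the large filament protein that binds RAN and SUMO-modified RANGAP1. It was read at 266 and 291 CPM in NC, 332.5 and 336 CPM in H1, 410 and 415 CPM in H1R1, 309 and 345 CPM in H1R6, and 219 CPM in H1R18. The libraries of H1 and H1R1 lay above both NC libraries, and that of H1R18 lay below every other library. Against NC the log2 fold change was 0.26 ± 0.08 (SE) in H1 (adjusted p = 0.0351), 0.57 ± 0.08 in H1R1 (adjusted p = 1.6e-06), 0.23 ± 0.08 in H1R6 (adjusted p = 0.0622) and -0.35 ± 0.10 in H1R18 (adjusted p = 0.0181). It was 0.30 ± 0.07 from H1 to H1R1 (adjusted p = 0.00713), -0.34 ± 0.07 from H1R1 to H1R6 (adjusted p = 0.00198) and -0.58 ± 0.10 from H1R6 to H1R18 (adjusted p = 9.07e-05). The call in H1 was lost without NC replicate 1 (adjusted p = 0.232), H1 replicate 1 (0.165) or H1 replicate 2 (0.188), with DESeq2 (0.055) and with only the conditions compared (0.0552). The call in H1R18 was lost without NC replicate 2 (adjusted p = 0.115) and with only the conditions compared (0.0854), that from H1 to H1R1 without H1 replicate 1 (0.0878) or 2 (0.0902), and that from H1R1 to H1R6 without H1R6 replicate 1 (0.107). The call in H1R6 was gained under RLE scaling (adjusted p = 0.047) and when scaling used library size alone (0.0323). Keeping genes with few counts (0.0257) or halving counts to read pairs (0.0333) gained it too. So did leaving out NC replicate 2 (log2 fold change 0.31) or H1R6 replicate 1 (0.33). It was not gained without NC replicate 1 (0.19) or H1R6 replicate 2 (0.17), nor by DESeq2 (0.24, adjusted p = 0.0507).

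RANBP2 has near-identical copies in the genome, the RGPD genes, and reads that align to several places were not counted. The counts that remained for 7 RGPD genes summed to 18.2 and 14.6 CPM in NC, 26.6 and 24.7 CPM in H1, 52.1 and 42.9 CPM in H1R1, 24.7 and 22.3 CPM in H1R6, and 18.2 CPM in H1R18. The sum was thus highest in the H1R1 libraries, as was RANBP2 itself, and how reads were split between the copies was not tested.

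RAE1 encodes an mRNA export factor that binds NUP98. Its libraries held 48.9 and 42.3 CPM in NC, 62.2 and 69.6 CPM in H1, 77.7 and 69.4 CPM in H1R1, 56.9 and 63.6 CPM in H1R6, and 44.1 CPM in H1R18. All libraries of H1, H1R1 and H1R6 lay above those of NC, and H1R18 lay between them. Against NC the log2 fold change was 0.52 ± 0.13 in H1 (adjusted p = 0.0116) and 0.69 ± 0.13 in H1R1 (adjusted p = 0.000221), the largest increase of a nucleoporin gene at either time. The call in H1 was lost without NC replicate 2 (adjusted p = 0.126), without H1 replicate 2 (0.17) and with DESeq2 (0.0621).

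NUP88 and NUP214 encode partners in a subcomplex at the base of the cytoplasmic filaments. NUP88 was read at 59.3 and 62.6 CPM in NC, 55.8 and 56.5 CPM in H1, 99.9 and 84.9 CPM in H1R1, 69.8 and 68.8 CPM in H1R6, and 48.2 CPM in H1R18. It stood out in the H1R1 libraries, with a log2 fold change of 0.61 ± 0.12 against NC (adjusted p = 0.000265) and of 0.72 ± 0.11 against H1 (adjusted p = 5.31e-05), the largest increase from H1. It was then lower in H1R6 than in H1R1, by -0.42 ± 0.11 (adjusted p = 0.00899), and lower in H1R18 than in H1R6, by -0.52 ± 0.15 (adjusted p = 0.0209). The fall to H1R6 was not called without H1R1 replicate 1 (adjusted p = 0.199), H1R6 replicate 1 (0.076) or 2 (0.0819) or with DESeq2 (0.0531), and that to H1R18 not without H1R6 replicate 1 (0.0687) or 2 (0.0644) or with DESeq2 (0.0688). Of the exon bases of NUP88, 32.3% overlap the genes RABEP1 and RPAIN on the other strand. Strand was not used and reads that fell on several genes were left out, so those bases add no counts and the level of NUP88 per exon length is set low.

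NUP214 was read at 115 and 102.5 CPM in NC, 112 and 116 CPM in H1, 133 and 133 CPM in H1R1, 137 and 136 CPM in H1R6, and 99.0 CPM in H1R18. Its H1R6 libraries lay just above those of H1R1, and the H1R18 library lay below all others. The log2 fold change against NC was 0.29 ± 0.09 in H1R1 (adjusted p = 0.0271) and 0.32 ± 0.09 in H1R6 (adjusted p = 0.0258), and it was -0.46 ± 0.12 from H1R6 to H1R18 (adjusted p = 0.00689). The call in H1R1 was lost without NC replicate 2 (adjusted p = 0.172), H1R1 replicate 1 (0.11) or 2 (0.072), with DESeq2 (0.0787) and with scaling by library size alone (0.0872). The call in H1R6 was lost without NC replicate 2 (adjusted p = 0.151), H1R6 replicate 1 (0.103) or 2 (0.106) and with DESeq2 (0.0504).

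NUP42, which binds GLE1 at the filaments, was read at 33.6 and 37.8 CPM in NC, 30.7 and 25.3 CPM in H1, 47.5 and 38.4 CPM in H1R1, 34.6 and 34.8 CPM in H1R6, and 29.0 CPM in H1R18. It was called in 1 comparison, H1R1 against H1, with a log2 fold change of 0.63 ± 0.16 (adjusted p = 0.0103). Leaving out H1 replicate 2 (adjusted p = 0.194) or H1R1 replicate 1 (0.217) ended that call. GLE1 ranged from 53.9 to 76.5 CPM over the 9 libraries, and AAAS, whose product aladin is anchored by NDC1, from 49.0 to 62.6 CPM. Neither passed in any of the 7 comparisons.

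Of the basket genes, NUP50 and NUP153 were called and TPR was not. NUP50, which helps to release cargo from importins inside the nucleus, was read at 138 and 105 CPM in NC, 130.5 and 136.5 CPM in H1, 185 and 175 CPM in H1R1, 123 and 118 CPM in H1R6, and 88.3 CPM in H1R18. The H1R1 libraries were the highest and the H1R18 library the lowest. The log2 fold change against NC was 0.56 ± 0.10 in H1R1 (adjusted p = 0.000129) and -0.47 ± 0.14 in H1R18 (adjusted p = 0.0216). From H1R1 to H1R6 it was -0.58 ± 0.10 (adjusted p = 8.88e-05), the largest fall of a nucleoporin gene at that step. It was 0.43 ± 0.10 from H1 to H1R1 (adjusted p = 0.00348) and -0.45 ± 0.13 from H1R6 to H1R18 (adjusted p = 0.0224). Without NC replicate 1, the fold change in H1R18 was -0.23 (adjusted p = 0.316), and with DESeq2 that call was lost too (adjusted p = 0.073). The call from H1 to H1R1 was lost without H1 replicate 1 (0.0691) or H1R1 replicate 1 (0.0634), and that from H1R6 to H1R18 without H1R6 replicate 1 (0.092) or 2 (0.0624) and with DESeq2 (0.0568).

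NUP153 encodes an FG-repeat protein at the nuclear ring. It was read at 250 and 263 CPM in NC, 250 and 247 CPM in H1, 303 and 322 CPM in H1R1, 325 and 334 CPM in H1R6, and 230 CPM in H1R18. The libraries of H1R1 and H1R6 lay above all others, and that of H1R18 was the lowest. The log2 fold change against NC was -0.05 ± 0.08 in H1 (adjusted p = 0.826), 0.28 ± 0.08 in H1R1 (adjusted p = 0.00669), 0.36 ± 0.07 in H1R6 (adjusted p = 0.00184) and -0.15 ± 0.10 in H1R18 (adjusted p = 0.336). Between successive times it was 0.33 ± 0.07 from H1 to H1R1 (adjusted p = 0.00317), 0.08 ± 0.07 from H1R1 to H1R6 (adjusted p = 0.541) and -0.52 ± 0.09 from H1R6 to H1R18 (adjusted p = 0.000272). The call in H1R1 was lost without NC replicate 1 (adjusted p = 0.0532) or H1R1 replicate 2 (0.0643), and that from H1 to H1R1 without H1 replicate 2 (0.0725). Of its exon bases, 10.6% overlap the antisense gene NUP153-AS1, and reads there were left out of the counts. TPR, the coiled-coil protein that forms the basket filaments, ranged from 375 to 478 CPM, with its lowest value in H1R18, and passed in no comparison.

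The central channel genes had the lowest median fold change against NC of the 6 classes in H1R1. NUP62, the core of the channel trimer, was read at 156 and 123 CPM in NC, 129 and 138 CPM in H1, 157.5 and 155 CPM in H1R1, 156 and 155 CPM in H1R6, and 106.5 CPM in H1R18. The H1R18 library was the lowest, but the NC libraries lay far apart. The log2 fold change from H1R6 to H1R18 was -0.55 ± 0.13 (adjusted p = 0.00285), and it held in all 15 alternatives. Against NC it was -0.39 ± 0.13 in H1R18 (adjusted p = 0.0418), which was lost in 10 of 15 alternatives and came to -0.18 without NC replicate 1 (adjusted p = 0.418). It was also lost without H1 replicate 1 (0.0579) or 2 (0.0707) and without H1R6 replicate 1 (0.076) or 2 (0.0748).

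NUP58 and NUP54, the partners of NUP62 in the trimer, ranged from 102 to 123.5 CPM and from 67.1 to 87.7 CPM and passed in no comparison. NUP98, which binds RAE1, was read at 228 and 231 CPM in H1 and 285 and 281 CPM in H1R1, with a log2 fold change of 0.30 ± 0.07 (adjusted p = 0.00668), and its NC libraries lay between at 256 and 250 CPM. Leaving out H1 replicate 1 (adjusted p = 0.0837) or 2 (0.0809) or H1R1 replicate 1 (0.0577) ended that call. The NUP98 gene also encodes the outer ring protein NUP96 from a shared precursor, so its counts cannot be assigned to a single ring of the pore.

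Among the outer ring genes, SEC13 had its highest mean in H1R18 and SEH1L in H1R6. Their proteins also serve outside the pore, SEC13 in the coat of vesicles leaving the endoplasmic reticulum and both in a complex that regulates amino acid signalling. SEC13 was read at 115 and 117 CPM in NC, 121 and 115 CPM in H1, 177 and 144 CPM in H1R1, 140 and 151 CPM in H1R6, and 172 CPM in H1R18. It was above NC in every recovery library and was the nucleoporin gene called higher after 18 h. The log2 fold change against NC was 0.48 ± 0.10 in H1R1 (adjusted p = 0.000559), 0.33 ± 0.10 in H1R6 (adjusted p = 0.033) and 0.58 ± 0.12 in H1R18 (adjusted p = 0.00125), and it was 0.45 ± 0.10 from H1 to H1R1 (adjusted p = 0.00182). The H1R18 value was called in all 15 alternatives. The H1R1 value was not called without H1R1 replicate 1 (adjusted p = 0.0616), the H1R6 value not without NC replicate 1 (0.128) or 2 (0.082), H1 replicate 1 (0.0511) or H1R6 replicate 1 (0.0582) or 2 (0.253) or with DESeq2 (0.0654), and the step from H1 not without H1 replicate 2 (0.0633) or H1R1 replicate 1 (0.14).

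SEH1L was read at 70.2 and 62.6 CPM in NC, 68.6 and 72.6 CPM in H1, 78.5 and 78.1 CPM in H1R1, 103 and 109 CPM in H1R6, and 76.0 CPM in H1R18. Its highest libraries were those of H1R6, where the log2 fold change against NC was 0.67 ± 0.11 (adjusted p = 6.91e-05), the largest increase of a nucleoporin gene at 6 h. It was the single nucleoporin gene called higher from H1R1 to H1R6, by 0.44 ± 0.10 (adjusted p = 0.00317), and it was lower from H1R6 to H1R18, by -0.48 ± 0.13 (adjusted p = 0.0128). The last call was lost without H1R6 replicate 2 (adjusted p = 0.0794).

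AHCTF1, whose product ELYS starts pore assembly on chromatin, was read at 92.8 and 78.8 CPM in NC, 103 and 111 CPM in H1, 124 and 124 CPM in H1R1, 95.0 and 119 CPM in H1R6, and 103.9 CPM in H1R18. All libraries after heating lay above NC, and it was called in H1R1, with a log2 fold change of 0.53 ± 0.11 (adjusted p = 0.000671). NUP85, a core member of the Y complex, was read at 76.7 and 76.8 CPM in H1 and at 98.7 and 110 CPM in H1R1, above the NC libraries at 78.3 and 71.0 CPM. Its log2 fold change in H1R1 was 0.44 ± 0.10 against H1 (adjusted p = 0.00425) and 0.48 against NC (adjusted p = 0.00131). The call against H1 was lost without H1 replicate 1 (adjusted p = 0.0531) or 2 (0.0609) or H1R1 replicate 2 (0.0563).

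NUP160, which lies at the head of the Y complex, was read at 203 and 198 CPM in H1, 236 and 258 CPM in H1R1, 197 and 196 CPM in H1R6, and 204 and 223 CPM in NC. It was called between successive times, higher from H1 to H1R1 by 0.30 ± 0.08 (adjusted p = 0.0128) and lower from H1R1 to H1R6 by -0.33 ± 0.08 (adjusted p = 0.00435). The rise was lost without H1 replicate 1 (adjusted p = 0.079) or 2 (0.153) or H1R1 replicate 2 (0.122), and the fall without H1R1 replicate 2 (0.0637), H1R6 replicate 1 (0.0553) or 2 (0.0567). NUP133 ranged from 238 to 288 CPM over the 9 libraries, NUP107 from 95.8 to 122 CPM, NUP43 from 113 to 138 CPM and NUP37 from 18.0 to 36.0 CPM. These last 4 outer ring genes passed in no comparison.

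Of the 5 inner ring genes, NUP155 alone was called against NC, in H1R1. It was read at 370 and 405 CPM in NC, 460 and 450 CPM in H1R1 and 338 CPM in H1R18. Its log2 fold change was 0.23 ± 0.07 in H1R1 against NC (adjusted p = 0.0166) and -0.35 ± 0.09 from H1R6 to H1R18 (adjusted p = 0.00634). The first was lost without NC replicate 1 (adjusted p = 0.152) or H1R1 replicate 1 (0.099), with scaling by library size alone (0.0878) and with only the conditions compared (0.0536). It was called from H1 to H1R1 as well, with a log2 fold change of 0.22 (adjusted p = 0.0402), which was lost without any of the H1, H1R1 or H1R6 libraries (adjusted p between 0.0540 and 0.227), with scaling by library size alone (0.132) and with no filter on low counts (0.104).

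NUP205 and NUP188, 2 related large proteins of the inner ring, were called lower from H1R1 to H1R6. NUP188 went from 299 and 306 CPM to 232 and 269 CPM, a log2 fold change of -0.28 ± 0.08 (adjusted p = 0.018), and NUP205 from 568.5 and 611 CPM to 499 and 510 CPM, a log2 fold change of -0.22 (adjusted p = 0.0186). The NUP188 call was lost without H1R1 replicate 1 (adjusted p = 0.063) or 2 (0.086) or H1R6 replicate 1 (0.359), and the NUP205 call without H1R1 replicate 2 (0.153), H1R6 replicate 1 (0.168) or 2 (0.0897). With scaling by library size alone, neither was called (adjusted p = 0.126 and 0.192), nor was NUP205 with no filter on low counts (0.0719). NUP93, the linker that holds the channel trimer, ranged from 113 to 138 CPM and NUP35 from 23.6 to 36.2 CPM, and neither passed in any comparison.

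NUP210, a transmembrane gene, was the nucleoporin gene called lower in H1R1 and H1R6. Its libraries held 429 and 376.5 CPM in NC, 403 and 379 CPM in H1, 291 and 305 CPM in H1R1, 276 and 248 CPM in H1R6, and 405 CPM in H1R18. The 4 libraries of H1R1 and H1R6 lay below the other 5, and the H1R18 library lay between those of NC. Relative to NC, the log2 fold change was -0.44 ± 0.08 in H1R1 (adjusted p = 0.000121) and -0.62 ± 0.08 in H1R6 (adjusted p = 2.33e-06). It was -0.39 ± 0.08 from H1 to H1R1 (adjusted p = 0.000855) and 0.63 ± 0.09 from H1R6 to H1R18 (adjusted p = 1.94e-05). These 4 calls held in every alternative tried, 15 or 16 for each.

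NDC1, which anchors the inner ring to the membrane, was lower in H1R6 than in H1R1, at 144.5 and 151 CPM after 195 and 196.5 CPM (log2 fold change -0.40 ± 0.09, adjusted p = 0.00113), and its NC libraries were at 172 and 170 CPM. POM121, a membrane FG protein, was higher in H1R1, at 121.5 and 113 CPM, than in H1, at 84.9 and 89.4 CPM (log2 fold change 0.43 ± 0.10, adjusted p = 0.00568), and its NC libraries were at 106 and 85.9 CPM. The POM121 call did not hold without H1 replicate 1 (adjusted p = 0.091) or 2 (0.0504) or H1R1 replicate 1 (0.0972). POM121C ranged from 95.2 to 122 CPM and passed in no comparison. POM121 and POM121C are near-identical, so reads that align to both were left out and their counts are partial. Reads over the 19.1% of POM121 exon bases shared with other genes were left out as well.

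**Figure D3:**
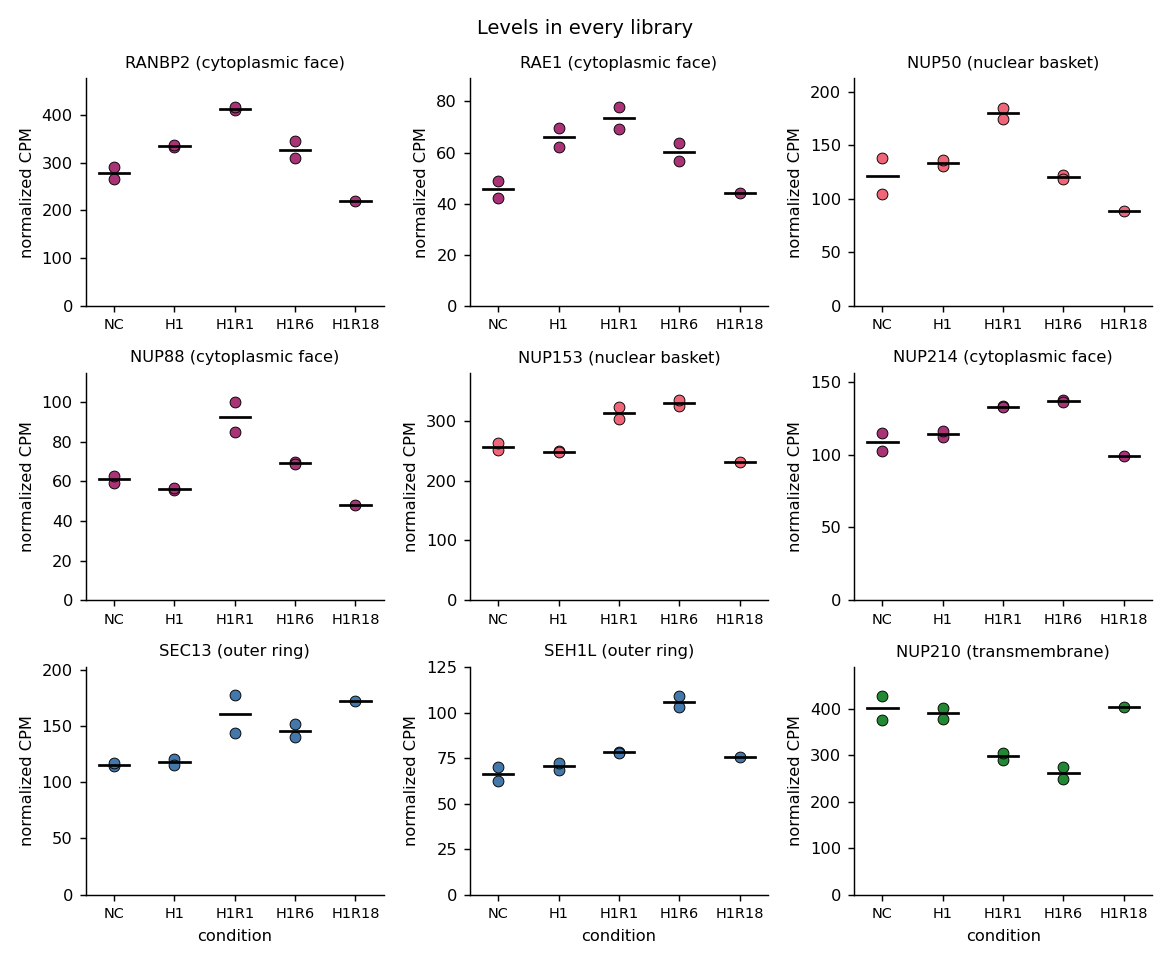
Normalized CPM in every library (points) and their mean (bars) for 9 nucleoporin genes in NC, H1, H1R1, H1R6 and H1R18, each axis starting at 0. RANBP2, RAE1, NUP50 and NUP88 peak in H1R1, NUP153, NUP214 and SEH1L in H1R6, SEC13 is at 172 CPM in H1R18, and NUP210 falls to 276 and 248 CPM in H1R6.

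The classes were then set side by side. In H1R1 against NC the median log2 fold change was 0.23 for the outer ring (3 of 9 higher), 0.18 for the inner ring (1 of 5), 0.22 for the transmembrane genes (0 of 4 higher, 1 lower), 0.12 for the central channel (0 of 4), 0.28 for the basket (2 of 3) and 0.29 for the cytoplasmic face (4 of 7). Of all genes tested, 10.7% were higher, and of those within the range of levels of the nucleoporin genes 21.7%. FG-repeat genes had a median of 0.28 (4 of 11 higher) and the others 0.19 (6 of 21 higher, 1 lower). From H1 to H1R1 the median was 0.30 for the FG-repeat genes (6 of 11 higher) and 0.15 for the others (5 of 21 higher, 1 lower), beside 6.35% of all genes and 14.7% of those within the range of levels. From H1R1 to H1R6 the median was -0.29 for the cytoplasmic face (2 of 7 lower) and 0.01 for the central channel (0 of 4). It was -0.18 for the outer ring (1 of 9 lower, 1 higher) and -0.08 for the inner ring (2 of 5 lower). The transmembrane genes had -0.21 (1 of 4 lower) and the basket -0.08 (1 of 3 lower). FG-repeat genes had -0.14 (2 of 11 lower) and the others -0.18 (5 of 21 lower, 1 higher). Of all genes 8.93% were lower, and of those within the range of levels 18.5%.

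From H1R6 to H1R18 the median was -0.34 for the FG-repeat genes, with 5 of 11 lower (NUP62, NUP153, NUP50, NUP214 and RANBP2), and -0.05 for the others, with 3 of 21 lower (SEH1L, NUP155 and NUP88). The shares called lower were 7.65% of all genes and 15.9% of those within the range of levels. By position it was -0.45 for the basket (2 of 3 lower), -0.45 for the cytoplasmic face (3 of 7), -0.29 for the central channel (1 of 4) and -0.05 for the 14 scaffold genes (2 lower). In H1R18 against NC, the 3 genes called lower were FG-repeat genes (NUP62, NUP50 and RANBP2). They were 3 of 11 FG-repeat genes and 3 of all 32, beside 6.43% of all genes tested and 13.2% within the range of levels. NUP62 and NUP50 were not called with DESeq2, and RANBP2 not with only the conditions compared. The FG-repeat genes had a median of -0.24 and ranged from -0.47 to 0.05. The others had a median of -0.07 and ranged from -0.34 to 0.58. The median was -0.05 for the scaffold and -0.03 for all genes tested. These are descriptions of small classes, the difference between classes was not tested, and the values at 18 h rest on 1 library.

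**Figure D4:**
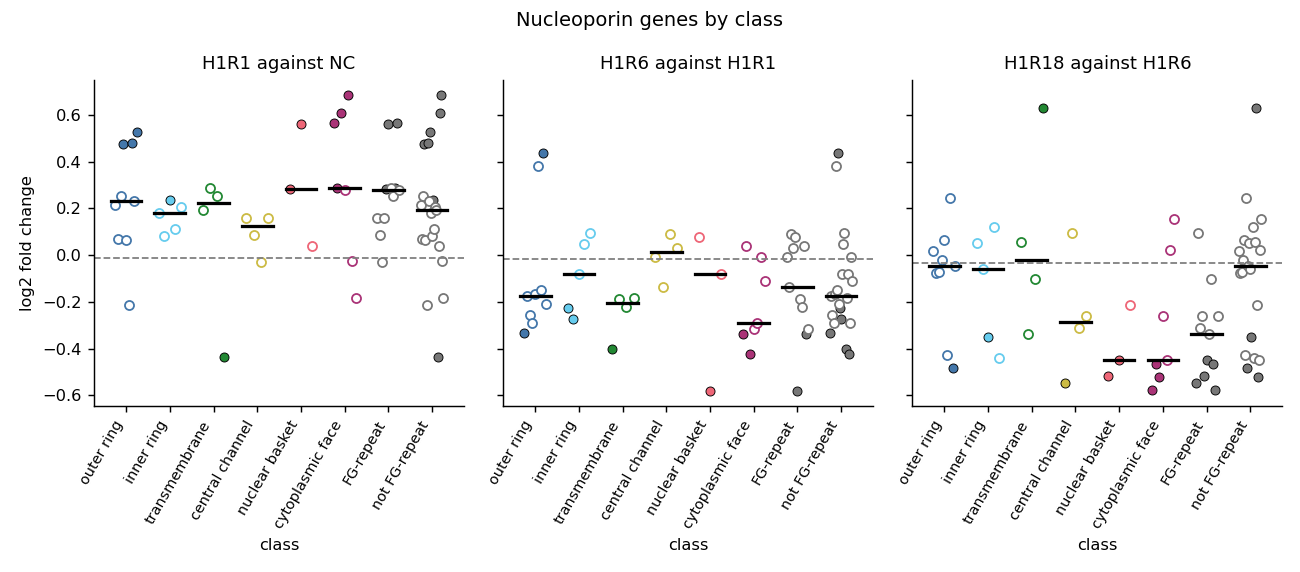
Log2 fold change of each nucleoporin gene (points, filled at an adjusted p under 0.05) by class and by FG repeats in H1R1 against NC, H1R6 against H1R1 and H1R18 against H1R6, with the median of the class (bar) and of all genes tested (dashed line). In H1R18 against H1R6 the FG-repeat median lies at -0.34 and that of the others at -0.05.

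The pore works with soluble partners, and 19 genes of the RAN cycle, of nuclear import and export and of pore-linked complexes were followed beside it. All 19 were tested. In edgeR's test of H1 against NC, 2 were higher (10.5%, against 3.43% of all genes tested) and 0 lower (against 1.77%), with 1 lower at an unadjusted p under 0.05 and 0 lower by DESeq2. In H1R1, 8 were higher (42.1%, against 10.7%) and 1, the helicase gene DDX19B, was lower (5.26%, against 9.53%). In H1R6, 3 were higher (15.8%, against 3.0%) and 1 lower (5.26%, against 4.03%), and in H1R18 1 was higher (5.26%, against 4.58%) and 4 lower (21.1%, against 6.43%). DDX19B, named because its count is 1, was not called by DESeq2 or without NC replicate 1, H1R1 replicate 1 or H1R1 replicate 2, each of which left 0 lower genes. The median log2 fold change was 0.09, 0.23, -0.01 and -0.09.

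NXF1, the main receptor that carries mRNA through the pore, differed from NC by more than any nucleoporin gene in H1, H1R1 and H1R18, but not in H1R6, where SEH1L (0.67) and NUP210 (-0.62) lay further from 0 on the log2 scale. It was read at 77.5 and 68.6 CPM in NC, 118 and 131 CPM in H1, 200.1 and 152 CPM in H1R1, 98.6 and 122 CPM in H1R6, and 38.5 CPM in H1R18. The libraries from H1 to H1R6 lay above NC and that of H1R18 lay below, with log2 fold changes of 0.76 ± 0.12 (adjusted p = 7.14e-05), 1.27 ± 0.12 (adjusted p = 1.7e-09), 0.59 ± 0.12 (adjusted p = 0.00177) and -0.93 ± 0.18 (adjusted p = 0.000634). From H1R6 to H1R18 it fell by 1.52 on the log2 scale (adjusted p = 2.13e-07). The call in H1R6 was lost without H1R6 replicate 2 (adjusted p = 0.111).

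RANGAP1, the RAN GTPase activator held at the filaments by RANBP2, was read at 278 and 267 CPM in NC, 321 and 343 CPM in H1, 435.5 and 428 CPM in H1R1, 351 and 375 CPM in H1R6, and 289 CPM in H1R18. It was higher than in NC in H1 (log2 fold change 0.29 ± 0.07, adjusted p = 0.0157), H1R1 (0.66 ± 0.07, adjusted p = 4.51e-08) and H1R6 (0.41 ± 0.07, adjusted p = 0.000309). The call in H1 was lost without NC replicate 2 (adjusted p = 0.0836), H1 replicate 1 (0.0512) or 2 (0.201). RCC1, the nuclear exchange factor for RAN, was higher in H1R1 (0.47 ± 0.08, adjusted p = 8.54e-05), as was RANBP1, which assists the RAN GTPase activator (0.36 ± 0.08, adjusted p = 0.00141). RCC1 was lower than in NC in H1R18 (-0.39 ± 0.11, adjusted p = 0.015), a call lost without NC replicate 1 (adjusted p = 0.0996) and with only the conditions compared (0.0629). PCID2, a member of the mRNA export complex TREX-2, was higher in H1R18 (0.80 ± 0.18, adjusted p = 0.00332), whose call was lost without NC replicate 1 (adjusted p = 0.0601).

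RAN, the GTPase that gives transport its direction, was lower late in recovery. Counts stood at 377 and 390 CPM in NC, 418 and 412 CPM in H1R1, 297 and 306 CPM in H1R6, and 263 CPM in H1R18. It was lower than in NC in H1R6 (-0.35 ± 0.07, adjusted p = 0.00138) and H1R18 (-0.55 ± 0.09, adjusted p = 7.81e-05). In H1R6, the exportin gene XPO1 was higher (0.22 ± 0.07, adjusted p = 0.0386), a call lost without NC replicate 1 (adjusted p = 0.201), H1 replicate 1 (0.0711) or 2 (0.0592), or H1R6 replicate 1 (0.0961) or 2 (0.15), and with only the conditions compared (0.0832).

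**Figure D5:**
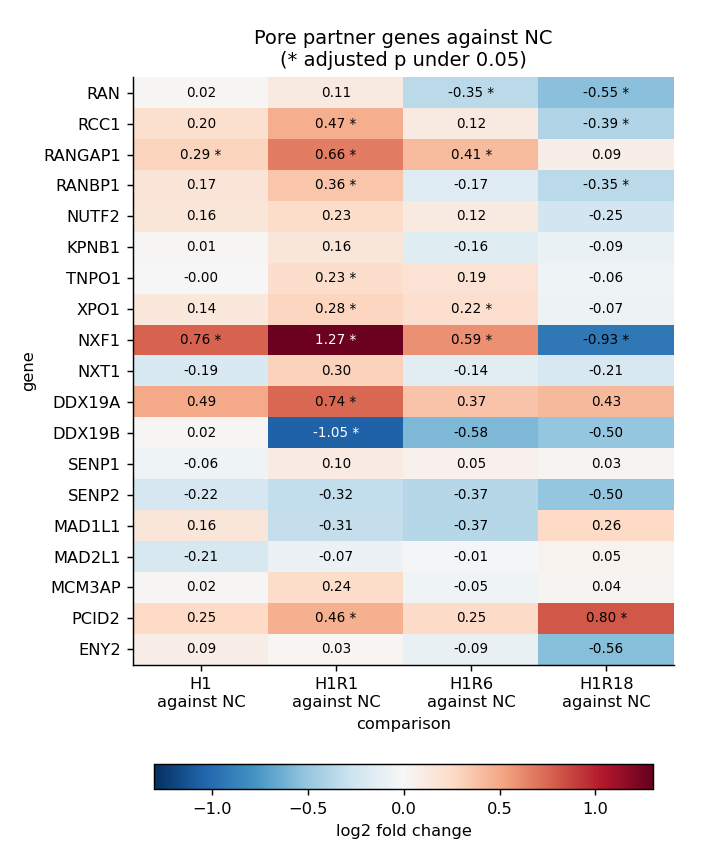
Log2 fold change against NC of 19 pore partner genes (lines) in H1, H1R1, H1R6 and H1R18 (columns), with an asterisk at an adjusted p under 0.05. NXF1 turns from 1.27 in H1R1 to -0.93 in H1R18, and RAN is lower at 6 h and 18 h.

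Gene structure was compared with the changes over the 32 genes, as a description. The genes span 17409 to 126710 bases, hold 3488 to 13213 exon bases and have 6 to 51 merged exons. Spearman's rho of the log2 fold change in H1R1 against NC was 0.12 with exon length and -0.06 with the number of exons, and over all 7 comparisons the largest was 0.33, with exon length in H1. Genes are not independent replicates, and exon length also sets the depth behind a gene. Of the 32 genes, 13 share no exon base with another gene and 6 share over 10%, among them NUP62, of which 20.1% lies under ATF5, IL4I1 and another gene, NUP88 and NUP153. Reads over shared bases were left out of the counts.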

How the data were processed

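Wild-type HEK293T cells were profiled by RNA-seq in 9 libraries, grouped by the treatment given in the labels. The authors deposited a table of raw counts per gene. Per the file headers and the submitters' processing notes, reads were trimmed with cutadapt 4.1, aligned to GRCh38 with HISAT2 2.2.1 and counted over exons of Ensembl 104 with featureCounts 2.0.2, each read of a pair singly, without strand, leaving out reads with several alignments or genes. FastQC 0.11.8 and DESeq2 1.38.3 are named too. All per-sample columns were matched to a label.

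The 32 genes, their classes and the partner list were chosen with earlier results of these data known. Symbols were found for 60463 of 60664 identifiers. Genes were kept by filterByExpr (minimum count 10, minimum total 15), leaving 21139, or 18871 without H1R18. The fit used edgeR 4.0.16 (R 4.3.3, limma 3.58.1): TMM scaling, the quasi-likelihood test with 1 coefficient per condition over all 9 libraries, and Benjamini-Hochberg adjustment over all genes in each of 7 comparisons. The lone H1R18 library is assumed to vary like the others. SEs of log2 fold changes are |log2 fold change| over the square root of the F statistic. The procedure was also run on simulated counts, with outcomes not reported here. They were drawn with the spread estimated in the same fit, so they cannot test that estimate. A common biological coefficient of variation of 0.0905 was estimated. Replicates differed by more than counting error (chi-square per degree of freedom 2.35 in NC and 1.71 to 1.77 in H1, H1R1 and H1R6). Levels between genes use the exon lengths of the count table. Summaries used Python 3.11.15 with pandas 2.3.3 and matplotlib 3.10.9.

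All members are named; values in every library are given for members past an adjusted p of 0.05, at most the 6 with the largest change in each direction per comparison, and always for NUP153 and RANBP2. Other members that passed are given more briefly. Of the partners, at most the 4 with the smallest adjusted p per comparison are given. Alternatives were RLE scaling, library size alone, DESeq2 1.42.0, no filter, only the conditions compared, no H1R18, counts halved to read pairs, a replicate block, and each replicate left out. Counts of FG dipeptides were not analysed here, and 1 listed partner gene is not reported here.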

Additional observations from a re-analysis of the deposited data

Results flagged for a closer look

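Of the successive changes in the 32 nucleoporin genes, 29 were called by edgeR's quasi-likelihood test of the difference (adjusted p under 0.05 over all genes). Most of these calls were lost in at least 1 alternative, as given with each gene above. In H1R1 against H1, only the calls of NUP88 and NUP210 held in every alternative. In H1R6 against H1R1, only those of SEH1L, NDC1 and NUP50 did. In H1R18 against H1R6, those of SEH1L, NUP50 and NUP88 were lost in at least 1. In H1R1 against H1, 34.4% of the 32 were higher, against 6.35% of all genes and 14.7% within their range of levels. In H1R6 against H1R1, 21.9% were lower, against 8.93% and 18.5%. In H1R18 against H1R6, 25.0% were lower, against 7.65% and 15.9%. At each step 1 gene was called in the other direction. The log2 fold changes of the 29 are listed as values, and no explanation was weighed. In H1R1 against H1 they were 0.72 for NUP88, 0.63 for NUP42, 0.45 for SEC13, 0.44 for NUP85, 0.43 for POM121, 0.43 for NUP50, 0.33 for NUP153, 0.30 for NUP98, 0.30 for RANBP2, 0.30 for NUP160, 0.22 for NUP155 and -0.39 for NUP210.

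In H1R6 against H1R1 they were 0.44 for SEH1L, -0.58 for NUP50, -0.42 for NUP88, -0.40 for NDC1, -0.34 for RANBP2, -0.33 for NUP160, -0.28 for NUP188 and -0.22 for NUP205. In H1R18 against H1R6 they were 0.63 for NUP210, -0.58 for RANBP2, -0.55 for NUP62, -0.52 for NUP88, -0.52 for NUP153, -0.48 for SEH1L, -0.46 for NUP214, -0.45 for NUP50 and -0.35 for NUP155. The last set rests on the single H1R18 library. Groups of 2 libraries are too small to look for a library far from the others.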

How the results depend on the processing

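Of 51 calls of a nucleoporin gene in a comparison, 22 held in every alternative (15 or 16 for each) and 29 were lost in at least 1, while 0 changed direction. The number of genes higher in H1 than in NC was 2, but 1 with only the conditions compared, 0 with DESeq2 and 0 to 2 with a replicate left out (1 without NC replicate 1, NC replicate 2 or H1 replicate 1, 0 without H1 replicate 2). In H1R6 against NC it was 4, but 7 with library size alone, with no filter and with counts halved, 2 with DESeq2 and 2 to 5 with a replicate left out (2 without H1R6 replicate 2). The number lower in H1R18 than in NC was 3, but 1 with only the conditions compared, 1 with DESeq2 and 1 to 4 with a replicate left out (1 without NC replicate 1). In H1R1 against H1, 11 were higher, and 2 to 11 with a replicate left out (4 without H1 replicate 1, 2 without H1 replicate 2 and 5 without H1R1 replicate 1). In H1R6 against H1R1, 7 were lower, and 2 to 8 with a replicate left out (4 without H1R1 replicate 2, 2 without H1R6 replicate 1 and 4 without H1R6 replicate 2). In H1R18 against H1R6, 8 were lower, and 5 to 9 with a replicate left out (5 without H1R6 replicate 2). The cause of these differences was not tested, beyond the fewer libraries in a fit. The count in H1R1 against NC was 10 higher, with 7 to 11 when a replicate was left out and 8 to 12 in the other alternatives. The median log2 fold change of the 32 genes in H1R1 against NC ranged from 0.15 to 0.22 over all settings. Scaling by library size alone moved the median of all genes by at most 0.09.

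Replicate numbers are shared by the groups, but nothing in the labels pairs them. Deviations of same-numbered libraries from their group means correlated at -0.04 to 0.04. This was taken over many genes at once, so it cannot exclude a pairing that affects part of the genes. With a replicate block, the counts were the same as without it, such as 10 higher in H1R1 against NC, 4 in H1R6 and 11 in H1R1 against H1. Leaving an arm with 1 library assumes that it varies like the other groups, and the 2 libraries per condition limit what can be called.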
